A study of Mus musculus with 6 samples.

Results

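SOX transcription factors are DNA-binding proteins that share a high-mobility-group (HMG) box, and 9 of their genes were followed in the mouse uterine luminal epithelium before and after embryo implantation: Sox2, Sox4, Sox7, Sox9, Sox11, Sox12, Sox13, Sox17 and Sox18. They were chosen by gene symbol, and each of these 9 genes has 1 row among the 21740 genes of the array table. The luminal epithelium is the cell sheet facing the uterine cavity and the first maternal tissue an embryo touches. It was taken on gestation day 4.5 (D4.5), when implantation sites were present, and on gestation day 3.5 (D3.5), when blastocysts were still in the uterus. Each day had 3 one-colour Affymetrix arrays. All females were wild type on a mixed C57BL6/129svj background, 2 to 4 months old, and mated naturally, and none received a treatment. Sheets were loosened from the uterus with 0.5% dispase and gentle scraping, which can carry along cells from below the epithelium. The labels do not say whether an array held 1 female or several, so the p-values reflect how far these samples differ from each other, and that spread may be technical.

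SOX proteins bend DNA through the HMG box and usually act with a partner factor. They are sorted by sequence into lettered groups, and members of a group often act in the same cells. Group F (Sox7, Sox17, Sox18) is best known from blood vessel endothelium, and Sox17 is in addition a factor of the mouse uterine epithelium, where it is needed for implantation and acts on the hedgehog ligand gene Ihh. Group C (Sox4, Sox11, Sox12) is known from progenitor cells and developing neurons, group E (Sox9) from cartilage, testis and epithelial progenitors, group D (Sox13) has no known activation or repression domain of its own, and group B (Sox2) keeps stem cells undifferentiated.

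Signals are given as log2(intensity + 16), quantile normalized, with the mean ± SD of the 3 arrays per day, and a change is the log2 difference of D4.5 minus D3.5 ± SE from a limma fit over all 21740 genes. Adjusted p-values are from that fit, two-sided, with Benjamini-Hochberg adjustment over all genes and a threshold of 0.05. Probes of different genes differ in brightness, so levels are compared between the days for 1 gene, not between genes. As a background, chemosensory receptor genes, which this tissue is not known to use, had 95% of their mean levels under 6.37 on D4.5 and under 6.56 on D3.5, called the receptor level here, and 95% of their changes between -0.59 and 0.33. Of these 1346 receptor genes 404 (30.0%) passed the threshold. Median deposited intensity per array was between 78.9 and 80.2 on D4.5 and between 108.6 and 118.4 on D3.5. All 12 epithelial markers lay above the receptor level on both days, and the stromal marker Vim reached 10.09 ± 1.07 on D4.5 and 10.31 ± 0.43 on D3.5.

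Of the 9 SOX genes, 5 fell (Sox2, Sox7, Sox17, Sox13 and Sox9), 1 rose (Sox12) and 3 did not pass (Sox18, Sox4 and Sox11). Among all genes 26.4% fell and 18.0% rose, so that 44.4% passed in either direction. Past the second criterion of at least 2-fold, 3 of the 9 fell (Sox2, Sox7 and Sox17), against 2.46% of all genes. That count was 1 with median centring, where Sox2 alone remained and 1.36% of all genes passed. It was 2 with a constant of 64 in place of 16, where Sox2 missed, against 1.8% of all genes. Without D3.5 replicate 1 (2.47% of all genes) or D4.5 replicate 2 (2.33%) it was also 2, and Sox17 missed. Among genes above the median level it was 2 of the 7 tested, where Sox2 was not tested, against 4.51% of those genes. In the values as deposited it was 3, against 4.84% of all genes. The median change of the 9 was -0.46, and that of all genes was -0.07. In 5 of the 9 every D4.5 array lay below every D3.5 array, as in 35.2% of all genes. The rise of Sox12 and the fall of Sox9 were lost when single arrays were left out, as given beside them.

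**Figure D1:**
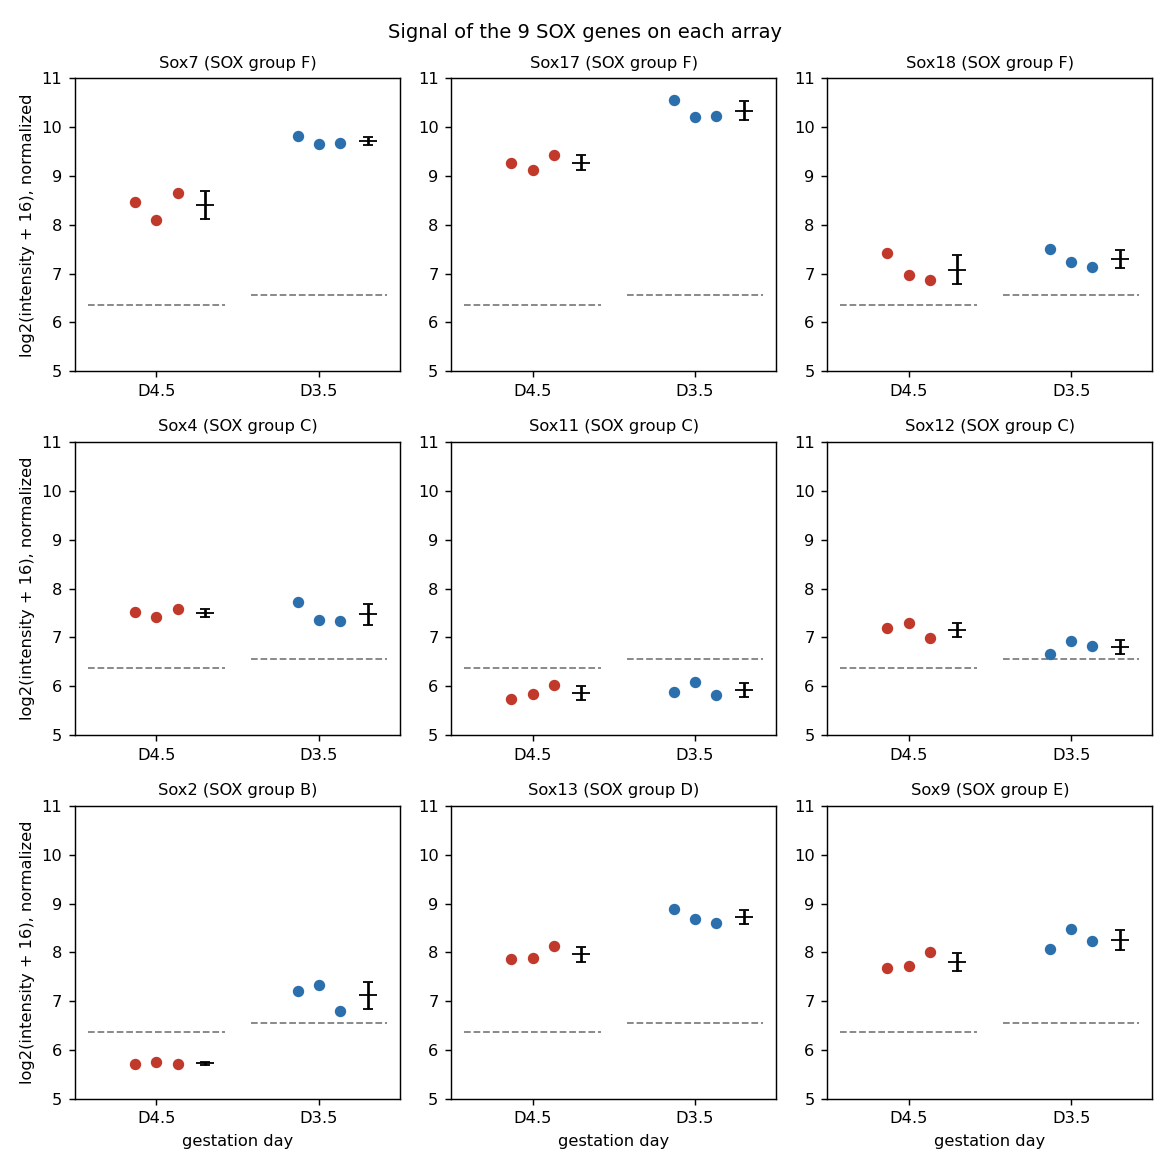
Signal of each of the 9 SOX genes, as log2(intensity + 16) after quantile normalization, on the 3 D4.5 arrays (red) and the 3 D3.5 arrays (blue); black marks give the mean and SD of a day and dashed lines the receptor level of that day. Sox7, Sox17, Sox2, Sox13 and Sox9 are lower on every D4.5 array, and Sox12 is higher on every D4.5 array. Sox18, Sox4 and Sox11 overlap between the days. Sox2 lies under the receptor level on D4.5 while Sox11 does so on both days.

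Sequences upstream of the gene start were in the RefSeq table of build GRCm38.p6 for 5 of the 9 genes. Of those 5, Sox2 and Sox13 are the ones that fell and Sox12 the one that was higher, and their 250 bases before the start are shown to set the 3 side by side. They lie at chr3:34649745-34649994 (plus strand), chr1:133424213-133424462 (minus strand) and chr2:152398047-152398296 (minus strand), and are written 5′ to 3′ on the strand of the gene. Capitals mark a SOX-type core, searched as ACAAT and ACAAAG on both strands; both cores begin with the same letters, and neither contains the other.
Sox2: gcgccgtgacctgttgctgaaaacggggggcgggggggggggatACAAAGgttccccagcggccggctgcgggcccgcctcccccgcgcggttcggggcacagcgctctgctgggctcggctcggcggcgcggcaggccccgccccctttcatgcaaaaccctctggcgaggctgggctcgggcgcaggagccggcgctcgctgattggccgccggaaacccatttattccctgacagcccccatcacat
Sox13: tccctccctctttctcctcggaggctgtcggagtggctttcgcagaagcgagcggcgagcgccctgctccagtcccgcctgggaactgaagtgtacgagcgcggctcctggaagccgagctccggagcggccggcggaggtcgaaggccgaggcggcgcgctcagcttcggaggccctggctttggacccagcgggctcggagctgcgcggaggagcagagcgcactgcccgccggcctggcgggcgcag
Sox12: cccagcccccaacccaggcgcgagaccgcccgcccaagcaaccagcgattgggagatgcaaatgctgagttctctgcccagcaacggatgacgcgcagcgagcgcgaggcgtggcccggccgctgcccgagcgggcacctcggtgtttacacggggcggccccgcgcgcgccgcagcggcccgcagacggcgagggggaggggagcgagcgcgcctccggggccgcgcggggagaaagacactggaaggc
The Sox2 sequence holds 1 ACAAAG, which begins 206 bases before the gene start, and the Sox13 and Sox12 sequences hold neither core in this window. Among all 32851 upstream windows of this length, 16.5% hold ACAAAG, 27.7% hold ACAAT and 38.8% hold either. GC content was 72.0% for Sox2, 72.4% for Sox13 and 74.4% for Sox12. A match of letters is a description of the sequence and not a binding site.

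Of the group F genes, Sox17, the member tied most closely to uterine epithelium, fell 2.09-fold. Its level was 9.27, 9.13 and 9.43 on the D4.5 arrays, against 10.56, 10.21 and 10.24 on the D3.5 arrays. The days were well apart, and both lay far above the receptor level. The change was -1.06 ± 0.12 (adjusted p = 0.000549). In the intensities as deposited Sox17 stood at 620.0, 549.3 and 670.7 on D4.5 and at 1220.2, 1243.4 and 1269.8 on D3.5. On that scale its change was -1.01, where the median of all genes was -0.40. With median centring it was smaller (-0.58, adjusted p = 0.00285), at the lower edge of the range that held 95% of receptor genes with that scaling (-0.58 to 0.38).

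Sox7, a factor of endothelium and of the extraembryonic endoderm, fell 2.48-fold. Its level was 8.48, 8.10 and 8.64 on D4.5 and 9.81, 9.66 and 9.69 on D3.5. The lowest D3.5 array was above the highest D4.5 array, and the D4.5 arrays spread more widely. The change was -1.31 ± 0.14 (adjusted p = 0.000393), and it lay between -1.43 and -0.89 over the 16 alternative fits. Deposited intensities averaged 321.1 ± 65.6 on D4.5 and 813.0 ± 45.3 on D3.5 (SD, n = 3 each).

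Sox18, which directs endothelial and lymphatic vessel formation, did not pass. Its level was 7.42, 6.96 and 6.87 on D4.5 and 7.50, 7.25 and 7.14 on D3.5. D4.5 replicate 1 lay inside the D3.5 range and the other two below it. The change was -0.21 ± 0.16 (95% interval -0.58 to 0.16, adjusted p = 0.311), an interval that reaches as far as a fall of 0.58 on the log2 scale. In the values as deposited, where the median of all genes was -0.40, Sox18 stood at -0.51 and passed (adjusted p = 0.0347).

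Because group F is an endothelial group, the markers of vessels were read on the same arrays. None of the 14 endothelial markers passed in either direction, and their median change was 0.03. Dll4, a Notch ligand of endothelium outside that list, rose by 0.75 ± 0.09 (limma adjusted p = 0.000706). The mean level of the list was 7.57, 7.18 and 6.71 on the D4.5 arrays and 7.06, 7.42 and 6.91 on the D3.5 arrays, so the days overlapped. The list ran from Kdr, the main receptor for vascular endothelial growth factor (6.72 ± 0.43 on D4.5 and 6.50 ± 0.21 on D3.5), to Cdh5, the endothelial cadherin (7.99 ± 1.11 on D4.5 and 8.35 ± 0.44 on D3.5). Sox7 and Sox17 were lower on every D4.5 array than on every D3.5 array. The part of endothelial cells in their values was not tested. Sox18 followed the endothelial mean in order over the D4.5 arrays, but on D3.5 it was highest on replicate 1 and the endothelial mean on replicate 2. Stromal markers had the same order of arrays as the endothelial mean (8.55, 8.06 and 7.45 on D4.5; 7.93, 8.26 and 7.80 on D3.5), and their part in the Sox18 values was not tested. In bulk tissue fewer cells of a type and less RNA per cell cannot be told apart.

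**Figure D2:**
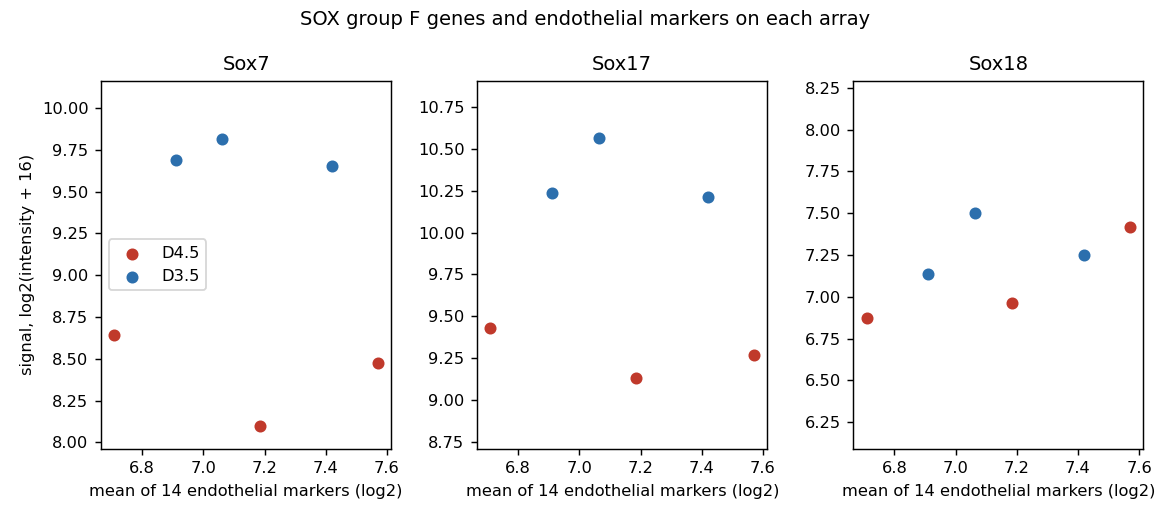
Signal of the 3 group F genes (vertical axis, log2(intensity + 16)) against the mean of 14 endothelial markers (horizontal axis, log2) on each D4.5 (red) and D3.5 (blue) array. Marker means ran from 6.71 to 7.57 on D4.5 and from 6.91 to 7.42 on D3.5. Sox7 and Sox17 are lower on every D4.5 array, whereas Sox18 values of the days overlap.

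Sox2, a partner of Oct4 in pluripotent cells and a factor of neural and foregut progenitors, fell 2.62-fold, with the smallest p of the 9. Its level was 5.72, 5.76 and 5.71 on D4.5 and 7.21, 7.34 and 6.80 on D3.5. All D4.5 arrays stood below the receptor level and all D3.5 arrays above it. The change was -1.39 ± 0.14 (adjusted p = 0.000281). Since the D4.5 signal is that of genes not known to be used, the size of the fall depends on the constant added before the logarithm: it was -1.71 with a constant of 1 and -0.89 with 64, and the call held with both. Deposited intensities were 28.2, 30.3 and 28.6 on D4.5 and 152.0, 160.5 and 111.4 on D3.5.

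Sox2 is also an embryo gene, and blastocysts were in the uterus on D3.5. Of 12 embryo and trophoblast markers 7 stood at or under the receptor level on both days, from Tpbpa, a trophoblast protein gene (4.90 ± 0.15 on D4.5 and 5.14 ± 0.06 on D3.5), up. Of the same list 4 genes fell and none rose by limma's adjusted p, against 26.4% of all genes that fell. The one past 2-fold was Elf5, a factor of trophoblast and of glandular epithelia (6.15 ± 0.08 on D4.5 and 7.15 ± 0.29 on D3.5). The others were Cdx2, a trophectoderm factor (6.46 ± 0.06 on D4.5 and 7.01 ± 0.14 on D3.5), and, at the receptor level on both days, Tdgf1 (5.92 ± 0.13 on D4.5 and 6.28 ± 0.02 on D3.5) and Esrrb (6.02 ± 0.07 on D4.5 and 6.27 ± 0.07 on D3.5). Esrrb lost its call without D3.5 replicate 2 or 3 or D4.5 replicate 1 or 3, and with arrays blocked by replicate number. The 8 markers that did not pass included Pou5f1, the gene of Oct4 (-0.20), and Nanog (-0.04), both at the receptor level on both days. The rest were Eomes (0.21), Zfp42 (0.10), Gata4 (-0.18), Gata6 (-0.18), Prl3d1 (-0.15) and Tpbpa (-0.24). The part of embryo RNA in the Sox2 values was not tested.

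Sox13 of group D, known from immune and neural cells, fell 1.70-fold. Its level was 7.85, 7.89 and 8.13 on D4.5 and 8.88, 8.68 and 8.61 on D3.5. The days did not overlap. The change was -0.77 ± 0.11 (adjusted p = 0.00125), and -0.41 with median centring, which still passed (adjusted p = 0.00859) but lies inside the receptor genes' range with that scaling. Deposited intensities averaged 221.6 ± 21.8 on D4.5 and 408.0 ± 7.4 on D3.5 (SD, n = 3 each).

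Sox9, which directs cartilage and testis development and marks progenitors in several epithelia, was lower by a small amount. Its level was 7.69, 7.71 and 8.00 on D4.5 and 8.07, 8.48 and 8.23 on D3.5. The days did not overlap, but D4.5 replicate 3 came close to the lowest D3.5 array. The change was -0.46 ± 0.13 (adjusted p = 0.0247), inside the central range of the receptor genes. The call was lost without D3.5 replicate 2 (-0.35, adjusted p = 0.0625), D3.5 replicate 3 (-0.47, 0.0545), D4.5 replicate 1 (-0.40, 0.0837) or D4.5 replicate 2 (-0.41, 0.0869), and with median centring (-0.16, adjusted p = 0.425).

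Of the group C genes, Sox12 was higher on D4.5. Its level was 7.18, 7.29 and 6.99 on D4.5 and 6.65, 6.94 and 6.83 on D3.5. The days did not overlap, but the nearest arrays were close. The change was 0.35 ± 0.11 (adjusted p = 0.0312), at the upper edge of the range of receptor genes. It did not pass without D3.5 replicate 1 (0.27, adjusted p = 0.0664), D3.5 replicate 3 (0.36, 0.0683), D4.5 replicate 1 (0.34, 0.0883) or D4.5 replicate 2 (0.28, 0.111). In the values as deposited it was -0.03, with 112.0 ± 15.9 on D4.5 and 114.2 ± 6.1 on D3.5 (SD of intensity, n = 3 each), so its direction rests on the scaling between the days.

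Sox4, a factor of many progenitor cells and of lymphocytes, had nearly the same mean on both days. Its level was 7.51, 7.42 and 7.58 on D4.5 and 7.72, 7.35 and 7.35 on D3.5. The D4.5 arrays lay within the D3.5 range. The change was 0.03 ± 0.11 (95% interval -0.24 to 0.30, adjusted p = 0.849), and changed sign with the values as deposited (-0.20) and without D3.5 replicate 2, D3.5 replicate 3 or D4.5 replicate 3, none of which passed. Sox11, known from developing neurons, stayed under the receptor level on both days, at 5.86 ± 0.14 on D4.5 and 5.92 ± 0.14 on D3.5. Its change was -0.06 ± 0.10 (95% interval -0.30 to 0.18, adjusted p = 0.658). At -0.55 it passed in the values as deposited alone among the 15 alternatives that measured it (adjusted p = 0.00276).

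**Figure D3:**
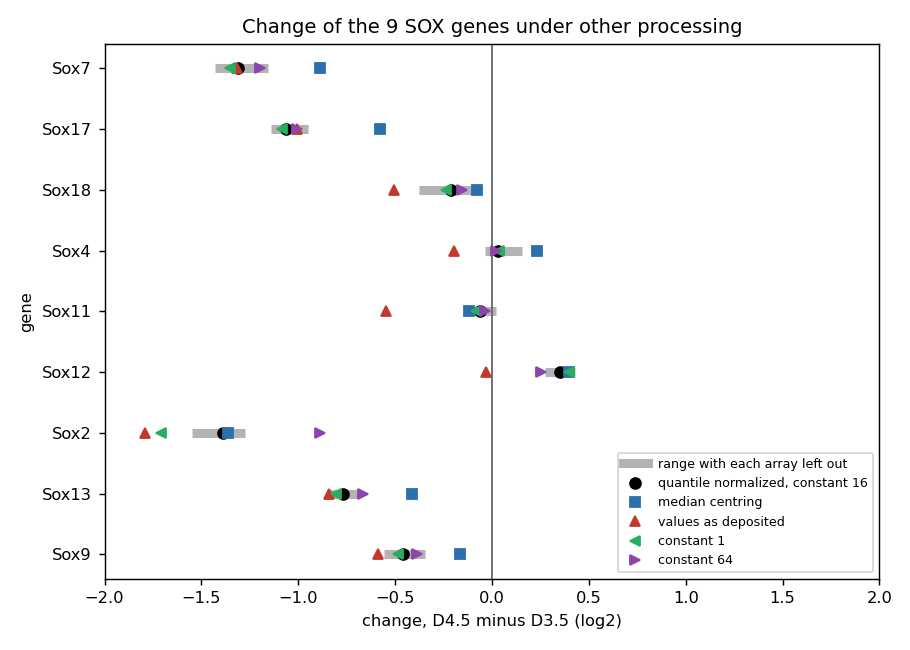
Change of each of the 9 SOX genes (log2, D4.5 minus D3.5) as reported and with median centring, in the values as deposited, with constants of 1 and 64, and as the range with each array left out in turn (grey bars). Sox7, Sox17, Sox2, Sox13, Sox9 and Sox18 stay below 0 in every setting shown. Sox12 and Sox4 cross 0 in the values as deposited, and the ranges of Sox4 and Sox11 with single arrays left out also cross 0.

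The other 11 SOX family genes on the array gave 6 that fell, 1 that rose and 4 that did not pass, with a median change of -0.22, beside 26.4% of all genes that fell and 18.0% that rose. Sox5, a coiled-coil group D factor that works beside Sox9 in cartilage, was the 1 past 2-fold: it averaged 8.04 ± 0.20 on D4.5 and 9.22 ± 0.16 on D3.5, a change of -1.18 ± 0.12 (adjusted p = 0.000396). Thus Sox5 and Sox13 of group D were both lower on D4.5, whereas Sox6, the third gene of that group, had a change of 0.45 ± 0.13 (adjusted p = 0.0236) from a D3.5 mean at the receptor level. Sox6 stood at -0.01 in the values as deposited and lost its call without D3.5 replicate 1 or 3 or D4.5 replicate 2 in turn. The smaller falls were those of Sox1 (-0.36 ± 0.07), Sox8 (-0.38 ± 0.09), Sox10 (-0.37 ± 0.09), Sox14 (-0.54 ± 0.15) and Sox30 (-0.22 ± 0.07), all inside the range of the receptor genes, and Sox30 at the receptor level on both days. Of these, Sox1 lost its call with median centring (-0.15, adjusted p = 0.168), Sox10 without D4.5 replicate 1 (adjusted p = 0.0511), and Sox14 without D4.5 replicate 1 or 2 (adjusted p = 0.0777 and 0.0844). Sox30 lost its call without D3.5 replicate 2 or 3 or D4.5 replicate 1 or 2, and with arrays blocked by replicate number (adjusted p = 0.0628). Sox3 (-0.21 ± 0.10), Sox15 (-0.05 ± 0.11), Sox21 (-0.07 ± 0.11) and the testis-determining gene Sry (0.09 ± 0.12) did not pass. In the values as deposited, Sox3 (-0.436), Sox15 (-0.485) and Sox21 (-0.322) passed as falls, where the median of all genes was -0.40. Sry averaged 7.53 ± 0.16 on D4.5 and 7.44 ± 0.17 on D3.5 in tissue of females. Its level was above the receptor level on both days, so lying above that level does not by itself show that a gene is used.

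**Figure D4:**
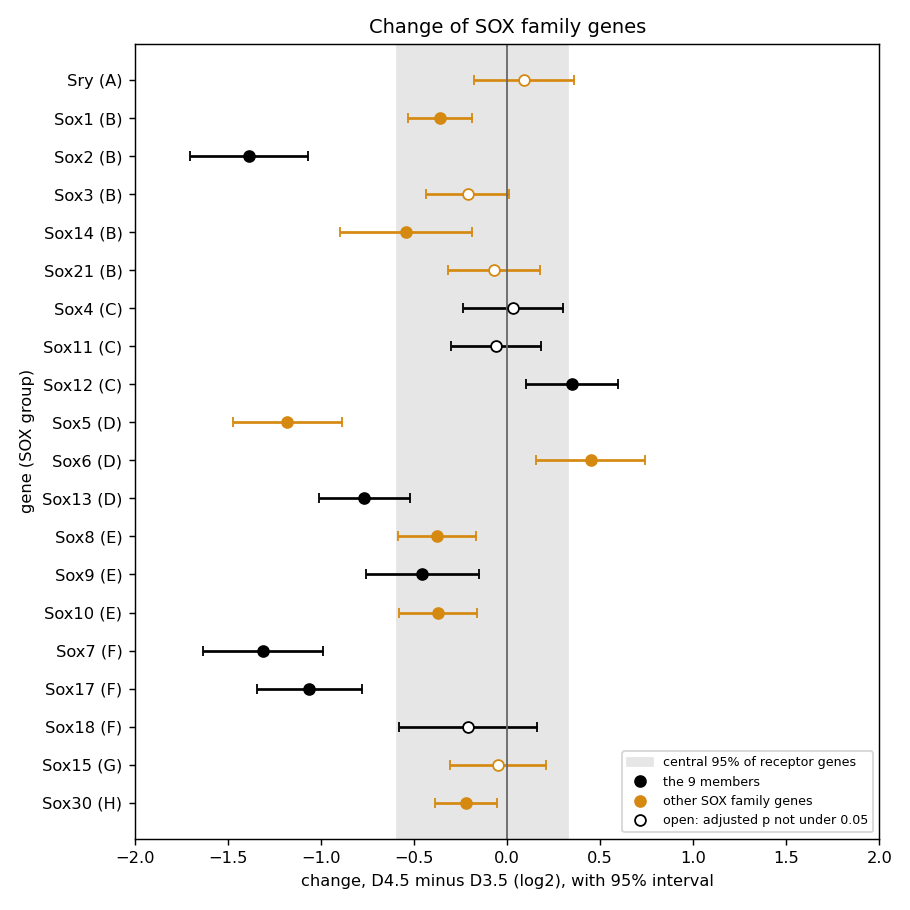
Change of the 9 members (black) and the 11 other SOX family genes (orange), as log2 D4.5 minus D3.5 with the 95% interval of the limma fit, ordered by SOX group; open points did not pass and the grey band holds 95% of receptor genes. Sox2, Sox5, Sox7, Sox13 and Sox17 lie to the left of the band, and Sox6 and Sox12 lie at or beyond its right edge.

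In mouse uterine epithelium Sox17 is known to act together with the progesterone receptor and GATA2. Of 7 genes listed as partners or targets of Sox17 there, 3 fell, 1 rose and 3 did not pass, where 44.4% of all genes passed in either direction. Pgr, the progesterone receptor, averaged 7.16 ± 0.39 on D4.5 and 10.31 ± 0.20 on D3.5 (change -3.15 ± 0.20, adjusted p = 4.28e-05). Gata2, a transcription factor upstream of Pgr, averaged 9.39 ± 0.04 on D4.5 and 11.34 ± 0.11 on D3.5 (-1.95 ± 0.08, adjusted p = 9.52e-06). Both fell by more than Sox17 did on this scale, a difference in change that was not tested. Foxa2, the factor of uterine glands, stood at -0.40 ± 0.13 (adjusted p = 0.0404). Its call was lost with a constant of 64 and with arrays blocked by replicate number (adjusted p = 0.0725). It was also lost without D3.5 replicate 1, D3.5 replicate 3, D4.5 replicate 1 or D4.5 replicate 2 in turn. Of 6 glandular epithelium markers, Foxa2 among them, 2 fell, 2 rose and 2 did not pass, with a median change of 0.17. The one past 2-fold was Spink3, which rose by 1.53 ± 0.09 (limma adjusted p = 3.19e-05) from a D3.5 mean at the receptor level. Esr1, the oestrogen receptor, rose by 0.71 ± 0.08 (adjusted p = 0.000631). Ihh, the hedgehog ligand gene on which Sox17 acts, averaged 9.86 ± 0.38 on D4.5 and 9.94 ± 0.21 on D3.5 and did not pass (-0.08 ± 0.19, adjusted p = 0.754). The EGF-family ligand gene Areg (-0.14 ± 0.33) and the chromatin remodelling gene Arid1a (-0.21 ± 0.09) did not pass, and Arid1a stood at 0.29 and passed with median centring (adjusted p = 0.0359).

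Many SOX factors also meet beta-catenin, the effector of Wnt signalling, and the TCF/LEF factors share their type of HMG box. Of 4 such genes measured, 1 fell, 1 rose and 2 did not pass, beside the 44.4% of all genes that passed. Tcf7l2, a TCF factor of gut and other epithelia, averaged 7.89 ± 0.15 on D4.5 and 8.87 ± 0.21 on D3.5 (-0.98 ± 0.12, adjusted p = 0.000894). Tcf7, the TCF factor of T cells, averaged 6.83 ± 0.26 on D4.5 and 6.29 ± 0.08 on D3.5, with D3.5 at the receptor level (0.55 ± 0.13, adjusted p = 0.0132, but 0.10 and not passed in the values as deposited). Ctnnb1, which encodes beta-catenin (0.06 ± 0.07), and Lef1 (-0.16 ± 0.30) did not pass, and Ctnnb1 stood at 0.61 and passed with median centring (adjusted p = 0.00646).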

How the data were processed

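Each of 6 one-colour Affymetrix arrays held biotin-labelled cRNA from 1 µg of total RNA, per the labels' protocols. The authors deposited linear intensity values per array; for their software and summary method, nothing is given in the sources used. The deposited p-value and the deposited fold change of the authors' comparison were not used. A second deposited table differed on 1 row, which has no symbol.

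Of 35556 rows, 25070 had 1 symbol, giving 21740 genes; rows of a symbol were averaged. Identifiers were not used, since 6701 rows, among them 18 of the 19 Sox rows, carry the number of the row before plus 1. The day means of the 19 Sox rows correlated with r = 0.914 across genes when rows were matched, and with -0.33 to 0.45 when D3.5 was moved by 1 to 3 rows. Genes are not independent replicates.

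Values were log2(intensity + 16), quantile normalized over all rows with no filter, and fitted with limma 3.58.1 in R 4.3.3 (lmFit, eBayes); Python 3.11.15, pandas 2.3.3 and matplotlib 3.10.9 handled tables and figures. The fit was tested on simulated data. The number of arrays limits the precision. The 9 genes, the gene lists and the tests were chosen with earlier results of these data known. Genes named: all SOX, TCF/LEF and Sox17-partner list genes, from other target genes up to 2 per direction with the smallest p, from marker lists the extremes and 2-fold changes, and the 5 genes most like the member with the smallest p. The embryo and trophoblast markers were all named. Alternatives were median centring, no normalization, constants of 1 and 64, array weights, brighter genes only (above the median level), a trended robust eBayes, a replicate block, the brightest row or 1-row genes, and each array left out.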

Additional observations from a re-analysis of the deposited data

How the results depend on the processing

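The calls of Sox2, Sox7, Sox13 and Sox17 kept their direction and their side of the threshold in every alternative that measured them (16 for each, 15 for Sox2), with changes between -1.79 and -0.89 for Sox2, -1.43 and -0.89 for Sox7, -0.85 and -0.41 for Sox13 and -1.14 and -0.58 for Sox17. Among the 9 SOX genes, 4 to 5 fell with single arrays left out, beside 3598 to 5737 of all 21740 genes. In the values as deposited 7 of the 9 fell, beside 13431 of all genes. After median centring 4 of the 9 fell, beside 4264 of all genes. The count of the 9 that rose was 0 to 1, and 0 in the values as deposited, where Sox12 stood at -0.032. Sox6, which is outside the 9, stood at -0.012 there. Over all genes, 6093 rose with median centring and 2483 as deposited, against 3914 (2942 to 4076 with single arrays left out). Falls numbered 13431 in the values as deposited and 2883 among genes above the median level, where fewer genes were tested, against 5737 (3598 to 5737 with single arrays left out, lowest without D4.5 replicate 2). Rises made up 40.6% of calls, 58.8% with median centring and 15.6% as deposited. Signs also turned with a call on 1 side for Arid1a (0.29) and Krt8 (0.35) with median centring, and for Tead2 (-0.36), Plvap (-0.39), Robo4 (-0.40) and Tagln (-0.20) in the values as deposited; the cause was not tested. Same-numbered arrays of the days did not deviate together (r = -0.06, 0.06 and 0.10) and did not all correlate best with their own number, so the replicate number was not taken as a pairing; with it as a replicate block 3530 genes rose and 4753 fell, and 1 SOX gene rose and 5 fell, while Foxa2 (adjusted p = 0.0725), Sox30 (0.0628) and Esrrb did not pass. The arrays give no read depth, and without detection calls a level under that of receptor genes, as for Sox2 on D4.5 and Sox11, sets no size of change.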

Other observations

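Genes described as SOX targets in other tissues were read as well, as values with no inference about SOX action here. Of 19 measured, 9 fell, 1 rose and 9 did not pass, and 8 stood at or under the receptor level on both days; the median change was -0.25, against -0.07 for all genes, of which 26.4% fell and 44.4% passed in either direction. Notch1, a Notch receptor, had the smallest p among the falls: it averaged 9.21 ± 0.17 on D4.5 and 10.40 ± 0.11 on D3.5 (-1.19 ± 0.10, limma adjusted p = 0.000184). Matn1, a cartilage matrix protein gene, followed at the receptor level on both days (-0.54 ± 0.07, limma adjusted p = 0.00127). Dll4, a Notch ligand of endothelium and a target of group F factors in mouse vessels, was the gene that rose, to 7.89 ± 0.15 on D4.5, against 7.13 ± 0.06 on D3.5 (0.75 ± 0.09, limma adjusted p = 0.000706).

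The 5 genes whose values over the 6 arrays were most like those of Sox2, each centred on its own mean, were Nav3, Nqo1, Gm5065, Anxa6 and Ror2, with root mean square differences of 0.07, 0.09, 0.11, 0.11 and 0.14 on the log2 scale. Nqo1, a quinone reductase gene, stood at 5.80 ± 0.03 on D4.5 and 7.12 ± 0.27 on D3.5. Anxa6, a calcium-dependent membrane-binding protein gene, stood at 9.24 ± 0.07 on D4.5 and 10.63 ± 0.28 on D3.5.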
